A study of Mus musculus with 14 samples.

Results

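The 9 interferon response genes described here are Irf7, Irf9, Isg15, Ifit1, Ifit3, Oasl2, Usp18, Ifi44 and Rtp4, measured in mouse liver after 3 weeks of furan. They were found on the array by the RefSeq accession that the scanner files give for each probe, and all 9 were among the 21976 genes and unnamed transcripts tested, 13773 of which carried a gene symbol. Liver signal of every member stood well above background on all 14 arrays, so no member entered through 1 group alone. Isg15 had 2 probes and each of the others had 1.

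The livers came from female B6C3F1 mice, a hybrid laboratory strain, bought at 5 to 6 weeks of age. There were 4 control mice gavaged with corn oil, 5 mice gavaged with furan at 1 mg/kg body weight and 5 gavaged with furan at 8 mg/kg, over 21 days. Every mouse of the 3 groups, controls included, also drank bromodeoxyuridine (BrdU, a thymidine analogue taken up by newly made DNA) for 5 days before necropsy, and livers were collected 4 h after the final gavage. Furan is a small heterocycle that liver cytochrome P450 oxidises to a reactive dialdehyde. Mice without BrdU were not analysed here, so no effect of BrdU on these genes can be given. Each liver RNA was labelled with Cy5 and hybridised with a Cy3-labelled universal mouse reference RNA, and a value below is log2 of liver over reference. Because the reference is the same on every array, such a value compares livers for 1 gene and not 1 gene with another.

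The 14 arrays lay on 5 slides, with all 3 groups on 4 of them and 1 array of each furan dose on the fifth. An array had liver signal well above background at 23061 to 29844 of its 55681 probes. All 12 hepatocyte markers on a list written for this purpose were well above background on every array, with a mean log2 ratio over the reference of 6.62 in control livers. The replicates are separate mice. Their RNA comes from whole liver, in which fewer cells of a type and less RNA per cell cannot be told apart.

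Type I interferons signal through a receptor at the cell surface to the kinases Jak1 and Tyk2. Their signal leads to ISGF3, a transcription factor that contains Irf9, binds the interferon-stimulated response element (ISRE) and switches on antiviral genes. Irf7 is one of those genes and in turn drives interferon alpha transcription, which closes a positive loop. Liver hepatocytes, Kupffer cells and plasmacytoid dendritic cells all take part in this response, and some of its genes keep a low constant level without infection.

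The response element can be read in the promoters of 3 members. A promoter here is the stretch from 250 bases before to 50 after the gene's start in the RefSeq promoter table of mouse assembly GRCm38.p6. That table held 8 entries for 7 members, with 2 for Irf9, and none for Usp18 and Rtp4. The letters searched were GAAA, any 2 bases and GAAA again, a core form of the ISRE, on both strands, and they occur in 1131 of the 32851 promoters of the table, or 3.44%. The 3 stretches are shown because they hold every match among the members. They are written 5′ to 3′ along the gene's own strand with the matched letters in capitals.
Isg15: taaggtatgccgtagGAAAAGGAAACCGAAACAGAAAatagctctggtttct
Ifit3: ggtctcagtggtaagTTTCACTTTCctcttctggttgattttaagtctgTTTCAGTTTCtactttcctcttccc
Ifit1: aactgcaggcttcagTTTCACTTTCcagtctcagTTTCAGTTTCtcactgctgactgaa

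The Isg15 stretch lies on the minus strand at chr4:156200860-156200911 and holds 3 overlapping matches on the gene's strand, between 78 and 57 bases before the start. The Ifit3 stretch lies on the plus strand at chr19:34583358-34583431 and holds 2 matches that do not overlap, read on the opposite strand, beginning 156 and 122 bases before the start. The Ifit1 stretch lies on the plus strand at chr19:34640770-34640828 and also holds 2 separate matches on the opposite strand, beginning 104 and 85 bases before the start. Its capitals are the same 10-letter runs as those of Ifit3. No match was found in the windows of Irf7, Irf9, Oasl2 and Ifi44. The letters TTC, any 3 bases and GAA, a form of the GAS element of interferon gamma responses, were in none of the 8 member entries and in 8.3% of all promoters. A match is a description of letters and not a site of binding. The 3 genes whose promoters hold the letters are among those whose levels did not pass the test in any comparison below.

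At 8 mg/kg against control, 1 of the 9 members passed the test and it was lower, where 4.09% of all features tested passed in either direction, 2.73% as higher and 1.36% as lower. That member was Irf7, the interferon-inducible transcription factor that drives interferon alpha genes. The fitted difference lay below 0 for 8 of 9 members, against 49.5% of all features, and the members' median difference was -0.13 on the log2 scale, against 0.00 over all features. With each array centred on its median in place of loess, the members' median turned to 0.08, against 0.14 over all features, and Irf7, Ifi44 and Rtp4 alone stayed below 0. At an unadjusted p under 0.05, 2 of 9 members counted, Irf7 and Ifi44, both lower, against 20.3% of all features in either direction and 8.75% as lower. In the log2 ratios themselves no member's groups stood wholly apart in any comparison, where 5.59% of features did so at 8 mg/kg against control, 182 of 21962 features did at 1 mg/kg against control, and 3.61% did at 8 against 1 mg/kg. The test throughout is limma's moderated test with slide as a block on all 14 arrays, adjusted by the Benjamini-Hochberg method over all 21976 features with a threshold of 0.05.

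Irf7 had log2 ratios of 0.53, 0.16, 0.74 and 0.71 in control mice 1 to 4. In mice 1 to 5 at 1 mg/kg its log2 ratios were 0.40, 0.26, 0.48, 0.27 and 0.72. In mice 1 to 5 at 8 mg/kg they were -0.05, 0.06, 0.00, 0.28 and -0.03. Of the 5 values at 8 mg/kg, 4 lay below every control value, and that of mouse 4 lay above the lowest control, mouse 2, so the groups overlapped. The 8 mg/kg array was the lowest of its slide on all 5 slides, and once each slide's mean was taken away the 8 mg/kg values no longer overlapped with either of the other groups. Slide 5 holds no control, so the mean taken away there is of the furan arrays alone. Such centred groups stood apart for 14.8% of features at 8 mg/kg against control and 12.9% at 8 against 1 mg/kg.

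Irf7 was 0.45 ± 0.11 log2 units (SE) lower at 8 mg/kg than in controls by the fit, or 1.37-fold lower, with limma's adjusted p = 0.0303. It was lower on 4 of 4 slides that hold both groups, with differences of -0.68 to -0.18. Against 1 mg/kg it was 0.37 ± 0.10 log2 units lower at 8 mg/kg (limma's adjusted p = 0.0414), lower on 5 of 5 slides, with differences of -0.51 to -0.20. The difference of Irf7 at 1 mg/kg against control was -0.08 ± 0.11 (limma's adjusted p = 0.894), with a 95% interval of -0.31 to 0.14. The levels therefore ran, low to high, from 8 mg/kg to 1 mg/kg to control, and the last 2 did not differ beyond their spread.

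The Irf7 call is close to the threshold and was lost under changes of processing and of single arrays. Against control the difference was -0.25 with median centring in place of loess (limma's adjusted p = 0.276) and -0.31 with the liver channel alone (0.181). It was -0.48 with no slide term (0.0844), -0.49 with a background offset of 16 (0.0501) and -0.49 with the scanner's processed signals (0.0788), and none of these 5 passed. Leaving out control mouse 1, 3 or 4, or 8 mg/kg mouse 1, 2, 4 or 5, gave differences of -0.47 to -0.35 and adjusted p of 0.0578 to 0.114 by limma, so each of these 7 arrays alone ended the call against control. Leaving out control mouse 4, any of the 5 mice at 8 mg/kg, or 1 mg/kg mouse 1, 2, 3 or 5 ended the call against 1 mg/kg, with adjusted p of 0.0521 to 0.121. The difference stayed below 0 in all 29 alternatives run for each of the 2 comparisons, though some of these alternatives left its value unchanged.

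Irf9, the DNA-binding subunit of ISGF3, followed slide more than dose. Its log2 ratios were 1.13, 1.17, 1.35 and 1.10 in control mice 1 to 4. Mice 1 to 5 at 1 mg/kg had 1.29, 1.20, 1.26, 1.52 and 1.17, and those at 8 mg/kg had 1.17, 1.44, 1.06, 1.10 and 1.12. The highest value of each group came from slide 3, and the 3 groups overlapped. Slide accounted for 78.6% of the variance of Irf9, dose after slide for 18.2%, and 3.21% was left over.

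Within slides Irf9 showed a small difference that the fit did not call. The 1 mg/kg array was the highest of its slide on all 5 slides, and the slide-centred 1 mg/kg values overlapped with neither of the other groups. As for Irf7, the values of slide 5 were centred on the furan arrays alone. The differences against control were 0.07 to 0.17 on 4 slides, with a fitted value of 0.13 ± 0.07 (limma's adjusted p = 0.749). Those at 8 mg/kg against 1 mg/kg were -0.14 to -0.07 on 5 slides, with a fitted value of -0.11 ± 0.07 (limma's adjusted p = 0.359). The fitted difference at 8 mg/kg against control was 0.01 ± 0.07. limma's moderated SE draws each gene's spread toward that of all features, so 0.07 is not the spread of Irf9 alone. Slide-centred groups that do not overlap are common here: 4.73% of features showed this at 1 mg/kg against control and 12.9% at 8 against 1 mg/kg, against 14.8% at 8 mg/kg against control, where Irf7 was the 1 member to do so.

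**Figure D1:**
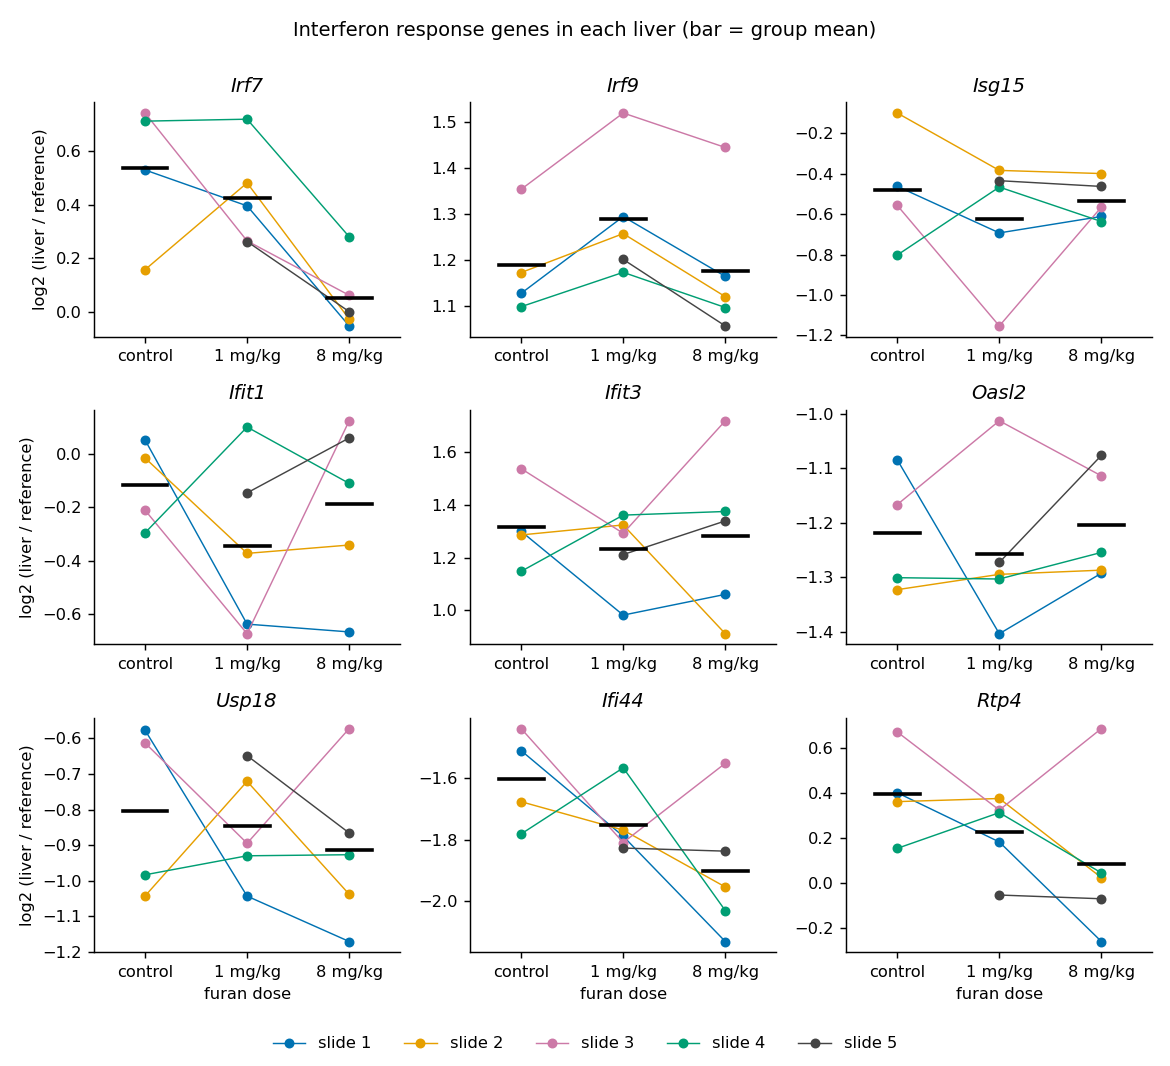
The log2 ratio of liver over reference RNA is plotted for each of the 9 genes in each mouse, by furan dose, with 1 colour per slide, lines joining arrays of 1 slide and a black bar at the group mean; the vertical axes differ between genes. Every Irf7 line ends at its lowest point at 8 mg/kg, every Irf9 line peaks at 1 mg/kg, and the lines of Isg15, Ifit1 and Ifit3 cross.

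Among the effectors, Isg15 encodes a ubiquitin-like protein that is joined to other proteins during the response. Its log2 ratios were -0.46, -0.10, -0.56 and -0.80 in control mice 1 to 4 and -0.69, -0.43, -0.38, -1.15 and -0.47 at 1 mg/kg. Those of the 8 mg/kg mice were -0.61, -0.57, -0.46, -0.64 and -0.40. The 8 mg/kg values all lay inside the range of the controls. The fitted difference was -0.09 ± 0.12 at 8 mg/kg against control and -0.18 ± 0.12 at 1 mg/kg against control. The second, dimmer Isg15 probe gave -0.22 ± 0.13 at 8 mg/kg against control (limma's adjusted p = 0.389) and -0.21 ± 0.13 at 1 mg/kg, so both probes gave values below 0 that did not pass.

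Ifit1 and Ifit3, proteins with tetratricopeptide repeats that act together on foreign RNA, lie near each other on chromosome 19. Ifit1 had log2 ratios of 0.05, -0.02, -0.21 and -0.30 in control mice, -0.64, -0.15, -0.37, -0.67 and 0.10 at 1 mg/kg, and -0.67, 0.12, 0.06, -0.11 and -0.34 at 8 mg/kg. Each furan group spanned more than the whole range of the controls. The fitted difference of Ifit1 was -0.13 ± 0.16 at 8 mg/kg against control and -0.28 ± 0.16 at 1 mg/kg against control, neither past the threshold (limma's adjusted p = 0.720 and 0.749).

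Ifit3 had log2 ratios of 1.30, 1.29, 1.54 and 1.15 in control mice and 0.98, 1.21, 1.32, 1.29 and 1.36 at 1 mg/kg. Mice 1 to 5 at 8 mg/kg had 1.06, 1.72, 1.34, 1.37 and 0.91, so the lowest and the highest Ifit3 value of the study both came from 8 mg/kg livers. Its fitted difference was -0.04 ± 0.12 at 8 mg/kg against control and -0.09 ± 0.12 at 1 mg/kg against control.

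Oasl2, a member of the oligoadenylate synthetase family, averaged -1.20 ± 0.10 at 8 mg/kg (SD, n = 5) and -1.22 ± 0.11 in controls (SD, n = 4). Its fitted difference was -0.00 ± 0.09, with a 95% interval of -0.19 to 0.19. The mean at 1 mg/kg was -1.26 ± 0.15 (SD, n = 5). Of the 9 members, Oasl2 had the difference closest to 0 at 8 mg/kg against control.

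Usp18 removes Isg15 from its targets and also blocks the interferon receptor, which makes it an inhibitor of the response. It averaged -0.91 ± 0.22 at 8 mg/kg (SD, n = 5) and -0.80 ± 0.24 in controls (SD, n = 4), and -0.85 ± 0.16 at 1 mg/kg (SD, n = 5). The fitted difference at 8 mg/kg against control was -0.14 ± 0.12 (limma's adjusted p = 0.564). The ranges overlapped almost wholly, from -1.17 to -0.57 at 8 mg/kg and from -1.04 to -0.58 in controls.

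Ifi44, a cytoplasmic protein named for its induction by interferon, came closest to Irf7. Its log2 ratios were -1.51, -1.68, -1.44 and -1.78 in control mice 1 to 4 and -1.79, -1.83, -1.77, -1.81 and -1.57 at 1 mg/kg. Mice 1 to 5 at 8 mg/kg had -2.13, -1.55, -1.84, -2.03 and -1.95. The groups overlapped through 8 mg/kg mouse 2, on slide 3, while the other 4 mice at that dose lay below every control. The fitted difference was -0.30 ± 0.11 at 8 mg/kg against control and did not pass after adjustment (unadjusted p = 0.0187, limma's adjusted p = 0.152). The difference was below 0 on 4 of 4 slides, as it was for Irf7, and 11.4% of all features were lower on every slide in this comparison.

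Rtp4 encodes a chaperone that helps certain receptors to the cell surface and is induced by interferon. It had log2 ratios of 0.40, 0.36, 0.67 and 0.15 in control mice and 0.18, -0.06, 0.37, 0.32 and 0.31 at 1 mg/kg. Those of the 8 mg/kg mice were -0.26, 0.69, -0.07, 0.04 and 0.02. As with Ifi44, 4 of the 5 mice at 8 mg/kg lay below every control, while mouse 2 on slide 3 lay above them all. The fitted difference of -0.26 ± 0.12 did not pass (unadjusted p = 0.0506, limma's adjusted p = 0.248), and it was below 0 on 3 of 4 slides.

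None of the 9 members passed at 1 mg/kg against control, and neither did any other feature: 0 of 21976 (0%) passed, with 0.0588 the smallest adjusted p by limma and 1509 features (6.87%) at an unadjusted p under 0.05, 1.95% as lower, none of them a member. No member was lower than control on all 4 slides, where 5.57% of features were. The members' differences ran from -0.28 for Ifit1 to 0.13 for Irf9, below 0 for 8 of 9, against 39.6% of all features, and their median was -0.09, against 0.03 over all features. With median centring it turned to 0.07, against 0.15. This comparison uses the same 4 control arrays as that of 8 mg/kg, so the signs in the 2 are not separate observations. Nor are those of the 9 members, several of which varied together from mouse to mouse. Of 118 other interferon pathway genes described below, 35 lay below 0 in this comparison, against the same 39.6%.

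At 8 mg/kg against 1 mg/kg, with the same 8 mg/kg arrays as before, 1 of 9 members passed, Irf7, where 5.29% of all features passed, 2.42% as higher and 2.87% as lower. Differences lay below 0 for 5 members, against 56.4% of all features, with a median of -0.07, against -0.02. Those of Ifit1, Isg15, Oasl2 and Ifit3 were above 0, at 0.16, 0.09, 0.05 and 0.05. Irf7 and Irf9 were lower at 8 mg/kg on all 5 slides, as were 10.3% of all features.

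**Figure D2:**
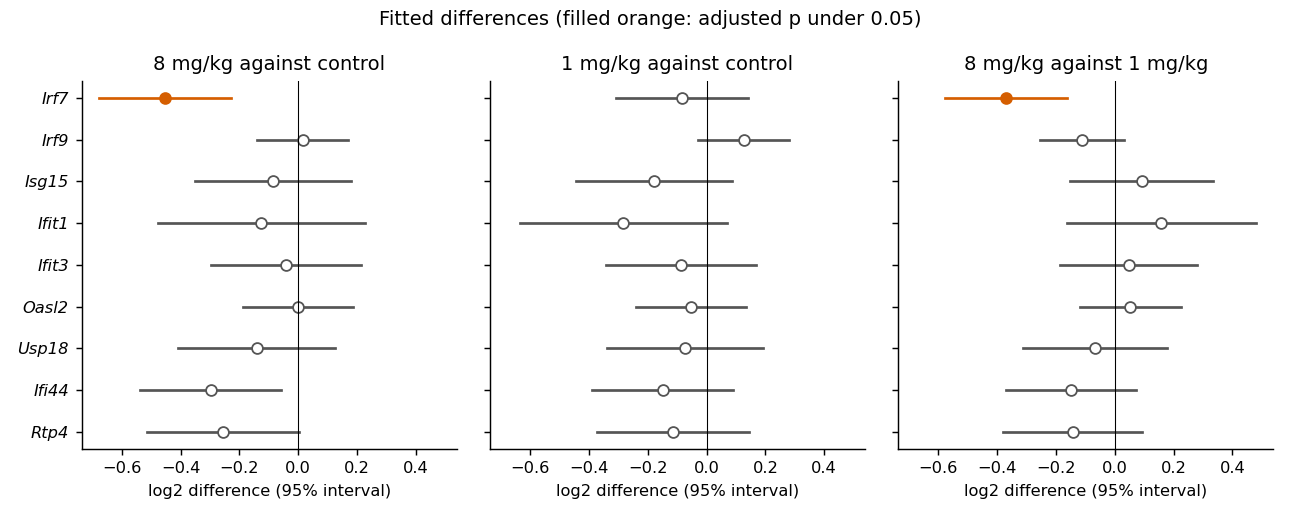
Fitted log2 differences of the 9 genes are plotted in 1 panel per comparison, with points for the fit, bars for its 95% interval and filled orange marks for adjusted p under 0.05. Irf7 is the filled mark in both panels that hold the 8 mg/kg livers, at -0.45 against control and -0.37 against 1 mg/kg, and the panel of 1 mg/kg against control has none.

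The spread between mice within a dose was of the size of the dose differences for most members. On slide 1, control mouse 1 lay above the slide's mean for 8 of 9 members and 8 mg/kg mouse 1 for 0 of 9, and the members' median difference between the 2 livers was -0.58. On slide 2 that median was -0.28, on slide 3 it was 0.04 and on slide 4 it was 0.05. Slides 1 and 2 thus had members lower in the 8 mg/kg liver, 8 of 9 and 7 of 9, and slides 3 and 4 did not, with 3 of 9 and 4 of 9 lower. Without control mouse 1 the median over members at 8 mg/kg against control was -0.00, and without 8 mg/kg mouse 2 it was -0.22. Dose after slide held 52.5% of the variance of Irf7 and 36.5% of that of Ifi44, and between 2.89% and 18.2% for the other 7 members.

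**Figure D3:**
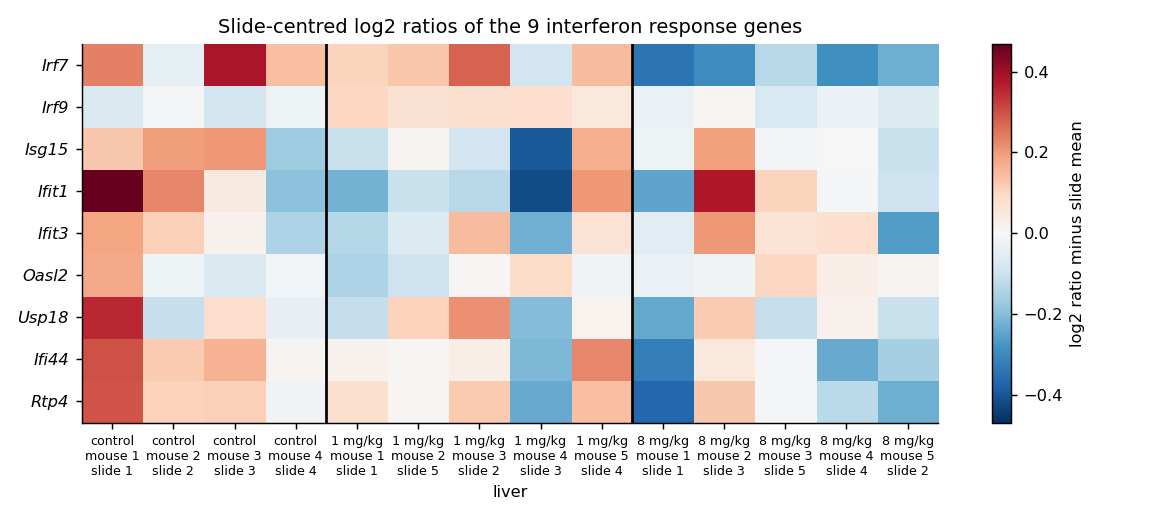
Each cell is the log2 ratio of 1 gene in 1 liver minus the mean of its slide, in columns by dose, mouse and slide, with red above and blue below the slide mean. The Irf7 row is blue in all 5 livers at 8 mg/kg, and the columns of control mouse 1 and 8 mg/kg mouse 1 are of opposite colour for most genes.

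Several members varied together from mouse to mouse. Over the 14 arrays, which share slides and the reference RNA, the 36 pairs of members had a median Pearson r of 0.39 (Spearman 0.33) after centring on slides, with 28 pairs above 0. The median r of members with all named features was -0.03. With group means also taken away the median over pairs was 0.37, and without control mouse 1 and 8 mg/kg mouse 1, the arrays farthest from the median of the members' mean, it was 0.27. Without slide 3 it was 0.49. These values describe 14 arrays and carry no test.

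Ifi44 and Rtp4 were the closest pair, with r = 0.94. Isg15 and Ifit1 had r = 0.83, and Ifit1 and Ifit3 had r = 0.79. Among the 6 members Isg15, Ifit1, Ifit3, Usp18, Ifi44 and Rtp4, a grouping made after the values were seen, the 15 pairs ran from 0.45 to 0.94. With group means taken away they ran from 0.46 to 0.92, without slide 3 from 0.22 to 0.94, and without the 2 farthest arrays from 0.34 to 0.90. The mean of these 6 in slide-centred log2 units was 0.29 in control mouse 1, the highest of the 14 livers, and -0.28 in 1 mg/kg mouse 4, the lowest, so livers of every dose lay on both sides of 0.

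Irf7 sat apart from part of this group. It had r = 0.72 with Ifi44, 0.67 with Rtp4 and 0.55 with Usp18, but 0.15 with Isg15, 0.09 with Ifit1 and 0.14 with Ifit3. Irf9 had r between -0.42 and 0.15 with the other 8, and Oasl2 had r between -0.42 and 0.34.

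**Figure D4:**
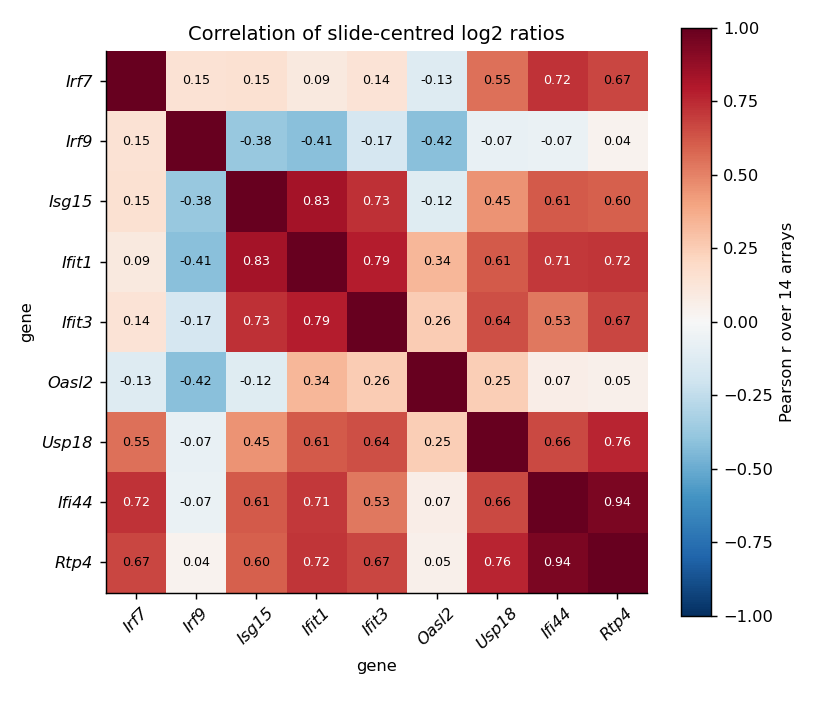
Pearson r over the 14 arrays is given for each pair of the 9 genes, from slide-centred log2 ratios. The block of Isg15, Ifit1, Ifit3, Usp18, Ifi44 and Rtp4 lies between 0.45 and 0.94, while Irf9 reaches at most 0.15 and Oasl2 at most 0.34 with any other gene.

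Genes with the pattern most like the members' were looked for among all named features. Of 13755 named candidates, the 10 with the highest r to the mean of the 9 slide-centred members were Tbx22, Jarid2, Golgb1, Vash1, Rsbn1l, Taf5, Gcm1, Cplx2, Tcea3 and H2-T24, with r between 0.86 and 0.92 over the 14 arrays. None of the 10 was among the 118 measured genes of the interferon pathway lists, which make up 0.858% of candidates, so that a count of 0 in 10 is no different from that share. For Irf7 alone, of 13763 candidates, the 5 most like it were Afmid (r = 0.98), Ubxn2b (0.94), Maoa (0.94), Zfp467 (0.94) and Cd59a (0.94), none of them a member or on a pathway list. Picking the highest r among so many genes over 14 arrays gives high values by construction, and they carry no test.

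Of the 5 genes most like Irf7, Zfp467, a zinc finger protein, fell by 0.71 ± 0.12 log2 units at 8 mg/kg against control (limma's adjusted p = 0.0065). Cd59a, an inhibitor of complement at the cell membrane, fell by 0.40 ± 0.09 (limma's adjusted p = 0.0206). Afmid, Ubxn2b and Maoa had differences of -0.25, -0.24 and -0.27 that did not pass. All 5 were picked for likeness to Irf7 on these same arrays. Differences below 0 at 8 mg/kg therefore follow from the pick and are no separate support for the Irf7 difference.

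The rest of the pathway was read from 5 lists written from general knowledge, whose 118 measured genes hold none of the members. Of the 118, 3 rose and 1 fell at 8 mg/kg against control, with a median difference of -0.02, against 0.00 over all features. None passed at 1 mg/kg against control, and the median was 0.06, against 0.03. Between the furan doses 2 rose and 5 fell at 8 mg/kg against 1 mg/kg, with a median of -0.05, against -0.02. Those counts are near or below the background shares given above, apart from the 5 that fell between the furan doses, where 2.87% of all features fell. In that comparison 83 of the 118 lay below 0, against 56.4% of all features. At an unadjusted p under 0.05, 22 of the 118 were lower there, against 12.4% of all features, and 7 were higher. Against control, 61 of the 118 lay below 0 at 8 mg/kg (49.5% of all features) and 35 at 1 mg/kg (39.6%). The 7 calls between the furan doses became 2 without 1 mg/kg mouse 3 or 5 or 8 mg/kg mouse 1, 3 without 1 mg/kg mouse 2 or 8 mg/kg mouse 3, 4 without 8 mg/kg mouse 5, and 1 with median centring or with no slide term, so the genes named from that comparison below carry this limit.

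By role, the receptors with the interferons Ifna2 and Ifnk had 0 of 7 past the threshold at 8 mg/kg against control, with a median of 0.07. Ifnar1, a chain of the type I interferon receptor, fell by 0.34 ± 0.09 at 8 mg/kg against 1 mg/kg (limma's adjusted p = 0.0403). Its log2 ratios there were 0.43, 0.86, 0.54, 0.76 and 0.59 at 8 mg/kg, against 1.11, 0.80, 0.71, 1.22 and 1.02 at 1 mg/kg, and the ranges overlapped. Against control its difference was -0.28 (limma's adjusted p = 0.119). The interferon genes Ifnb1, Ifng, Ifna4 and Ifne were not tested, nor was the receptor gene Ifnlr1.

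Nucleic acid sensors and their adaptors had 0 of 12 past the threshold in every comparison, with a median of 0.02 at 8 mg/kg against control. Of 15 listed, Rigi, Tlr3 and Aim2 were not tested. The smallest p in each direction belonged to Cgas, which senses DNA, at 0.16, and to Tlr9, an endosomal DNA receptor, at -0.13. The signalling list of kinases, transcription factors and inhibitors had 0 of 16 in every comparison and a median of -0.02 at 8 mg/kg against control, with Stat3 at 0.23 (limma's adjusted p = 0.131) and Pias1 at -0.12.

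Among 52 other genes induced by type I interferon, Trim25 and Ly6e rose at 8 mg/kg against control, none fell, and the median was -0.02. The list held 63 genes, and those not tested include Mx1, Mx2, Ddx60, Oas1b, Oas1g and Epsti1. Trim25 encodes a ubiquitin ligase of the antiviral RNA sensing pathway. Its log2 ratios were 1.18, 1.57, 1.20, 1.32 and 1.44 at 8 mg/kg, against 0.67, 0.62, 0.93 and 0.76 in controls, with no overlap. The 5 mice at 1 mg/kg lay from 0.79 to 1.21. Trim25 rose by 0.64 ± 0.09 against control (limma's adjusted p = 0.00106) and by 0.37 ± 0.08 against 1 mg/kg (limma's adjusted p = 0.0159).

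Ly6e, a protein anchored in the cell membrane, had log2 ratios of 1.33, 1.04, 0.99, 1.31 and 0.99 at 8 mg/kg, against 0.46, 0.43, 0.93 and 0.29 in controls, again with no overlap. It rose by 0.64 ± 0.12 (limma's adjusted p = 0.0110). Both genes thus differed in the opposite direction to Irf7 in the same livers. On that list of type I interferon genes, the lowest p with a difference below 0 belonged to Adar, at -0.32 (limma's adjusted p = 0.0695). Adar is an RNA-editing enzyme.

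Between the furan doses 3 genes of that list fell and 1, Trim25, rose at 8 mg/kg. Uba7 encodes the enzyme that activates Isg15 for joining to proteins. It had log2 ratios of 0.20, 0.32, 0.28, 0.23 and 0.21 at 8 mg/kg, against 0.47, 0.53, 0.61, 0.67 and 0.57 at 1 mg/kg, which did not overlap. Uba7 fell by 0.32 ± 0.07 against 1 mg/kg (limma's adjusted p = 0.0221), and its difference against control was -0.24 (limma's adjusted p = 0.113). Apol9a and Apol9b, apolipoprotein L genes of near-identical sequence whose probes may read each other's RNA, fell by 0.38 ± 0.10 and 0.45 ± 0.10 against 1 mg/kg (limma's adjusted p = 0.0331 and 0.0187).

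Of 32 genes induced mainly by interferon gamma, 1 rose and 1 fell at 8 mg/kg against control, and the same 2 did so against 1 mg/kg. The list held 35 genes, and Cxcl11, Ciita and Ido1 were not tested. Cxcl10, a chemokine that draws T cells and is also induced by other inflammatory signals, had log2 ratios of 1.87, 1.70, 1.03, 0.76 and 1.30 at 8 mg/kg, against -0.01, -0.06, 0.14 and -0.21 in controls. The 8 mg/kg values all lay above those of both other groups, and 1 mg/kg ran from -0.36 to 0.57. Cxcl10 rose by 1.45 ± 0.19 against control (limma's adjusted p = 0.000955) and by 1.31 ± 0.17 against 1 mg/kg (limma's adjusted p = 0.000922).

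Nlrc5, the transcriptional activator of MHC class I genes, had log2 ratios of 0.96, 1.36, 1.15, 0.80 and 0.57 at 8 mg/kg, against 1.40, 1.01, 1.87 and 1.20 in controls. These overlapped, and the fit gave a fall of 0.42 ± 0.10 against control (limma's adjusted p = 0.0299) and of 0.35 ± 0.09 against 1 mg/kg (limma's adjusted p = 0.0354). The median over the 32 genes was -0.03 at 8 mg/kg against control.

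**Figure D5:**
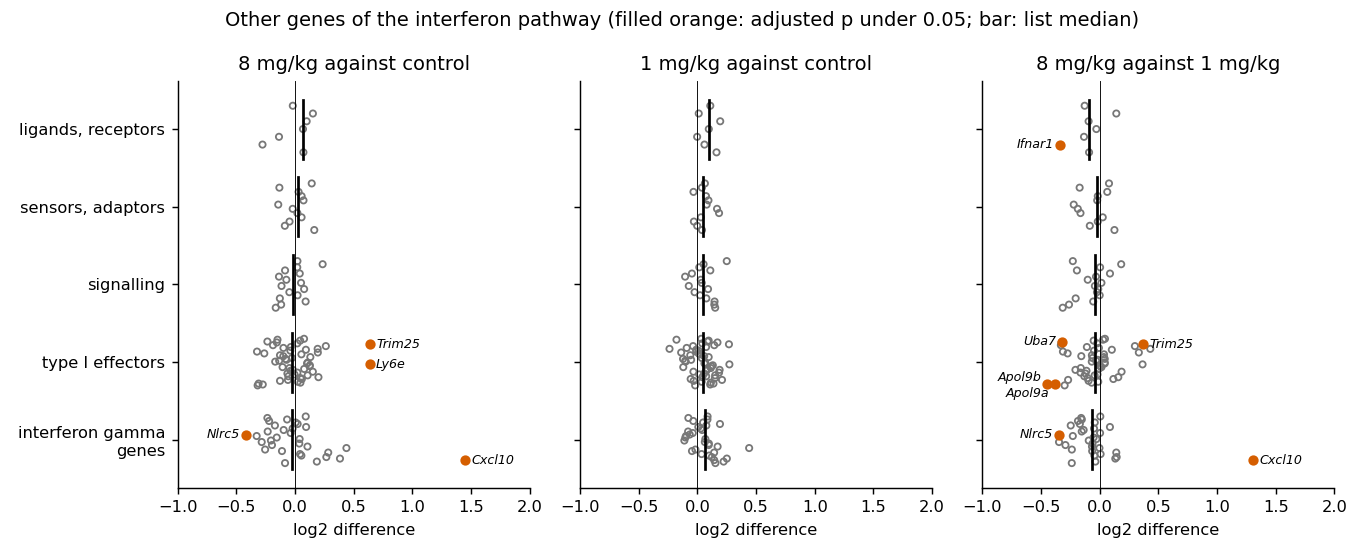
Each point is the fitted log2 difference of 1 gene on 1 of the 5 interferon pathway lists, in 1 panel per comparison, with a bar at the list's median and filled orange marks for adjusted p under 0.05. The list medians lie between -0.03 and 0.07 at 8 mg/kg against control, and Cxcl10, Trim25 and Ly6e stand to the right of them.

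Markers of cell types that make or answer interferon are given beside the members for reference, and their part in the Irf7 difference was not tested. Of 9 measured markers of plasmacytoid dendritic cells, which hold high constant Irf7, 1 rose at 8 mg/kg against control, Ly6d by 1.43, and none fell. Siglech, a defining marker of these cells, was at 0.25 (limma's adjusted p = 0.215), and 4 of the 9 markers lay below 0 and 5 above. Bst2 and Irf8 of the list are also on the interferon pathway lists. The list's median difference was 0.02 at 8 mg/kg against control. Its mean log2 ratio, to which Ly6d contributes, ran from -0.69 to -0.37 at 8 mg/kg and from -0.77 to -0.54 in controls. Its summed liver signal ran from 44772 to 68984 at 8 mg/kg and from 38846 to 70305 in controls. Such sums were not scaled between arrays, and the highest of each group came from slide 3. Against 1 mg/kg, Klk1 of that list fell by 0.51 (limma's adjusted p = 0.0461).

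Of 14 Kupffer cell and macrophage markers 0 passed at 8 mg/kg against control, with a median of 0.03. Their unscaled summed signal was 33881 to 85304 at 8 mg/kg and 29676 to 67892 in controls, both maxima again from slide 3. At 8 mg/kg 10 of the 14 lay above 0, and 3 were higher at an unadjusted p under 0.05, against 20.3% of all features in either direction. Marco had the smallest p of these, at 0.66 (limma's adjusted p = 0.0615). That list's median was 0.24 at 1 mg/kg against control, where no feature of the array passed. There 12 of the 14 lay above 0, and 5 were higher at an unadjusted p under 0.05, against 6.87% of all features in either direction. None of 9 T and NK cell, 5 neutrophil and monocyte, 6 B and plasma cell or 10 sinusoidal endothelial markers passed at 8 mg/kg against control, with medians of 0.01, 0.07, -0.12 and -0.08. Those lists named 14, 12, 9 and 10 genes in that order, and the rest were not tested. Most of the neutrophil and monocyte list, with Ly6g, Cxcr2, Retnlg and Ccr2, is therefore not covered. Of 12 hepatocyte markers 1 fell, Cps1 of the urea cycle, by 0.34 (limma's adjusted p = 0.0335), and the median was 0.01.

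Irf7, Ifnar1, Uba7, Apol9a, Apol9b and Nlrc5 fell at 8 mg/kg against 1 mg/kg. In that comparison markers of several liver cell types also lay below 0, against 56.4% of all features. All 10 sinusoidal endothelial markers did so, with a median of -0.19 and 5 at an unadjusted p under 0.05. So did 11 of 12 hepatocyte markers (median -0.10), 12 of 14 Kupffer cell and macrophage markers (median -0.12), 8 of 9 T and NK cell markers (median -0.07) and 6 of 6 B and plasma cell markers (median -0.07). Among neutrophil and monocyte markers 2 of 5 lay below 0 and among plasmacytoid dendritic cell markers 5 of 9, with medians of 0.04 and -0.00. Of these lists, Ly6d and Klk1 of the plasmacytoid dendritic cell list were the genes past the threshold in that comparison, Ly6d as higher. The part of these markers in the falls was not tested.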

How the data were processed

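The deposited scanner files hold, per the file headers, spot intensities in both channels read with Feature Extraction 10.7.3.1, together with processed intensities used here as an alternative. The authors also deposited a table of linear ratios of liver over reference. Its log2 values correlated at 0.992 to 0.995 with those computed here, its column medians were 0.976 to 0.990, and how it was normalized is not stated in the sources used here. Median intensities were corrected by limma's normexp (offset 50) and log2 ratios normalized by loess within each array, without the 3671 control spots of 62976 and the 178 to 336 spots per array with outlier flags. No spot was saturated. Accessions were matched to RefSeq symbols, naming 26413 of 55681 probes.

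Probes well above background on at least 4 of 14 arrays were kept (28867), and the brightest probe stood for a gene. Groups were compared with limma 3.58.1 in R 4.3.3 with data.table (version 1.17.8) over all 14 arrays with slide as a fixed block. The fit was also run on simulated data with independent noise and no slide effect. That run therefore says nothing about arrays that vary together on a slide. Figures used matplotlib 3.10.9 in Python 3.11.15. The number of arrays limits the precision.

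The members and gene lists were chosen with earlier results of these data known. Named were all members, each list's genes past the threshold in any comparison with those of smallest p in each direction at 8 mg/kg against control, where they add to the account, and the genes of highest r. The alternatives covered background, normalization, filter, slide, replicate block and each array left out.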

Additional observations from a re-analysis of the deposited data

Results flagged for a closer look

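In 2 of the 27 sets of values looked at, 1 for each member and dose group, 1 liver stood apart by Dixon's test, where chance flags about 1 set in 20. Irf9 in 8 mg/kg mouse 2, on slide 3, had a log2 ratio of 1.44, and its gap to the nearest of the other 4 livers was 0.722 of the group's range. On that slide the Irf9 values of the control and 1 mg/kg livers were also the highest of their groups. Ifi44 in 1 mg/kg mouse 5 had a log2 ratio of -1.57, and its gap was 0.776 of the group's range.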

How the results depend on the processing

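The Irf7 difference was below 0 in all 29 alternatives of each comparison in which it passed. Scaling between arrays, averaging a gene's probes and both changes of filter left it at -0.45 against control and -0.37 against 1 mg/kg. Against 1 mg/kg, leaving out 1 control array or changing the slide term also left it at -0.37. The 29 alternatives are thus not separate checks. Irf7 kept its call in 14 of 29 at 8 mg/kg against control (-0.57 to -0.25, limma's adjusted p 0.0127 to 0.276) and in 13 of 29 at 8 mg/kg against 1 mg/kg (-0.44 to -0.24, adjusted p 0.0249 to 0.265). The count of members past the threshold was 0 in both comparisons with the liver channel alone, median centring, no slide term, an offset of 16, the replicate block and the scanner's processed signals. It was also 0 at 8 mg/kg against control with only the 2 groups' arrays and without slide 3, and it was 0 to 1 with each array left out in both comparisons.

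Over all features, 898 passed at 8 mg/kg against control, against 1352 with median centring, 273 with no slide term, 510 with offset 16, 302 with only the 2 groups' arrays, 389 with processed signals, 399 without slide 3, and 315 (without 8 mg/kg mouse 1) to 869 with each array left out. Between the furan doses 1162 passed, against 410 with median centring, 297 with no slide term, 430 with processed signals, and 418 (without 8 mg/kg mouse 1) to 1251 with each array left out. At 1 mg/kg against control the count was 1 with the deposited table, with no background correction, with no filter and with offset 16, 4 with median centring, and 0 to 3 with each array left out. Of the calls at 8 mg/kg against control 66.7% were higher, and 96.4% with median centring. Between the furan doses 45.7% were higher, 64.4% with processed signals and 68.3% with median centring. Median centring moved the median of all features to 0.14 and 0.15 in the comparisons with control.

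Pathway list genes past the threshold numbered 8 at 8 mg/kg against control with the liver channel alone and 3 to 4 with each array left out. Between the furan doses they numbered 11 with the liver channel alone, 4 with processed signals, 1 with median centring, 1 with no slide term and 2 to 8 with each array left out. The members' median was -0.58 within slide 1 at 8 mg/kg against control, -0.35 within slide 3 and 0.16 within slide 4 at 1 mg/kg against control, and 0.32 within slide 3 at 8 mg/kg against 1 mg/kg. With each array left out it ran from -0.22 to -0.00 at 8 mg/kg against control, from -0.18 to -0.01 at 1 mg/kg against control and from -0.13 to 0.01 at 8 mg/kg against 1 mg/kg. Median centring turned Usp18 to 0.066 at 8 mg/kg against control and Ifi44 to 0.012 at 1 mg/kg against control, and leaving out slide 3 turned Ifit1 to -0.00083 at 8 mg/kg against 1 mg/kg. The cause was not tested for these changes; signs of values within 1 SE of 0 also turned.

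Same-numbered arrays of 2 groups correlated from -0.42 to 0.25 in 13 pairs, with 5 over 0.1, once group means were taken away. Slide effects remained in these values and some same-numbered arrays shared a slide. Whether the replicate numbers pair the mice therefore cannot be told from them. With the replicate block 122 features, 1 pathway gene and 0 members passed at 8 mg/kg against control, and 150, 1 and 0 at 8 mg/kg against 1 mg/kg. Arrays of 1 slide correlated from 0.09 to 0.66, with 12 of 13 pairs over 0.1. With 4 or 5 mice a group, the differences of Irf9, Isg15, Ifit1, Ifit3 and Oasl2 at 8 mg/kg against control were smaller than their standard errors.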
